A study of Mus musculus with 6 samples.

Results

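The genes described here encode enzymes that build cholesterol and fatty acids from acetyl-CoA. They also encode regulators that sense sterols and set the transcription of those enzymes, and a carrier that moves sterols inside the cell. They were taken by name as 36 of the 53465 genes in the deposited table, and they fall into 18 sterol synthesis enzymes, 5 regulators together with the carrier Stard4, and 12 fatty acid synthesis enzymes. Polyadenylated RNA was sequenced from 4T1 cells, a mouse mammary carcinoma line that metastasizes from the mammary gland, in 3 libraries of parental cells (P) and 3 libraries of an axitinib-resistant variant (AxR). Axitinib inhibits the tyrosine kinases of the VEGF receptors. The AxR variant came from metastases that grew after surgery in mice on continuous axitinib at 100 mg/kg/day, and its cells were afterwards kept in culture with 0.5 μM axitinib for over 2 months. The sample descriptions name a treatment for the AxR libraries alone and the study calls its P cells vehicle-treated, but the growth description shared by all 6 libraries names 0.5 μM axitinib, so whether the P medium held the drug is not settled. Both lines were grown in RPMI with 5% fetal bovine serum, which carries cholesterol and fatty acids in lipoproteins and on albumin. AxR is a single derived variant as far as the descriptions say, and passage through a mouse, growth as a metastasis, selection and the drug itself cannot be told apart. The descriptions do not say that the 3 libraries of a line came from separate cultures, so the p-values measure the spread between these libraries, which may be technical.

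The libraries held 15495260 to 17294525 estimated counts each. Levels are given as CPM, counts of a gene scaled to the size of the library by the upper quartile method, and a difference is a log2 fold change of AxR against P with its standard error (SE). Each adjusted p is a Benjamini-Hochberg value from edgeR's quasi-likelihood test over the 13550 genes with enough counts to test. The lines differed at many genes: 63.5% of the genes tested passed an adjusted p of 0.05, 32.8% higher in AxR and 30.8% lower, and the median change over all of them was 0.01. The mammary epithelial markers were all detected, with summed levels of 2131 to 2349 CPM in P and 3213 to 3387 CPM in AxR, and 5 of the 7 were higher in AxR and 2 lower. Adipocytes also carry much of the lipid synthesis machinery, but the 8 adipocyte markers summed to only 0.114 to 0.953 CPM in any library, and Lep, Cidec and Cfd had no count. The 7 leukocyte markers summed to 0.0652 to 0.365 CPM. Pdgfra was the only fibroblast marker with enough counts to test, and it was lower in AxR. Foxj1 was likewise the only lung marker tested, at 0.729, 0.289 and 0.717 CPM in P and 3.81, 3.83 and 3.75 CPM in AxR, while the surfactant protein genes had at most 2 counts in a library. The part of these marker differences in the results below was not tested. In bulk RNA, fewer cells of a type and less RNA per cell cannot be told apart.

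Animal cells make cholesterol by joining acetyl-CoA units into mevalonate, turning mevalonate into isoprenoid units, condensing these to squalene, and folding and trimming squalene through lanosterol. Fatty acids are made from the same acetyl-CoA by carboxylation and repeated condensation, and are then lengthened and desaturated. The genes of both routes are switched on by the sterol regulatory element-binding proteins (SREBPs), membrane proteins that SCAP escorts from the endoplasmic reticulum to the Golgi, where proteases free their transcription factor domain. When sterols are plentiful, INSIG proteins hold SCAP back in the endoplasmic reticulum. SREBP-2, from Srebf2, acts mainly on sterol genes, and SREBP-1, from Srebf1, mainly on fatty acid genes.

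The sterol enzymes listed here were higher in AxR cells at almost every step. Of the 18 enzymes, all of which had enough counts to test, 16 rose, none fell and 2 did not pass the test, beside the 32.8% of all genes that were higher in AxR. Their median log2 fold change was 1.02, or 2.03-fold, and 10 of the 18 rose by at least 1 on the log2 scale, against 7.99% of all genes tested. No gene of the 36 fell by as much, as 4.72% of all genes did. The AxR libraries lay above the P libraries without overlap for 17 of the 18, against 35.1% of all genes tested. The regulators and Stard4 followed in part, with 4 of 6 higher and 1 lower. The fatty acid enzymes followed less evenly, with 9 of 12 higher and 2 lower at a median of 0.36. Over all 36 genes, 29 rose, 3 fell and 4 did not pass. For each gene without overlap the exact two-sided permutation test of its log2 CPM gave p = 0.1, the smallest that 3 libraries against 3 allow.

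**Figure D1:**
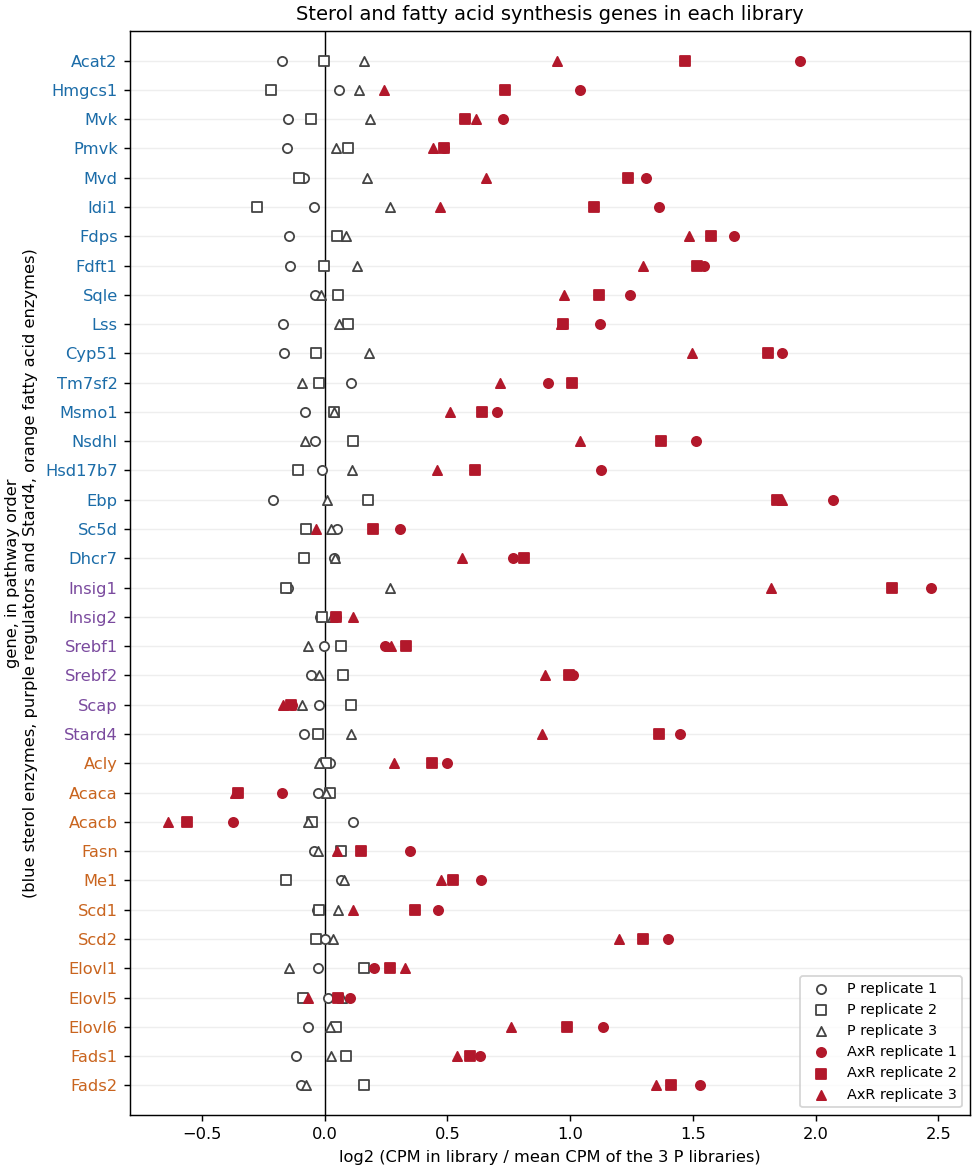
Level of each of the 36 genes in each library, as log2 of the CPM over the mean CPM of the 3 P libraries (open symbols P, filled symbols AxR, shapes for replicates 1, 2 and 3). The filled symbols lie to the right of the open ones for 30 genes and to the left for 3, and AxR replicate 3 is the lowest of the filled symbols for 31 genes.

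The promoters of these genes are where SREBPs and their partners NF-Y and Sp1 act in the textbook account, so the 250 bases before the transcription start are shown for 5 genes: the enzyme that makes HMG-CoA, the INSIG gene that passed the test below and the one that did not pass it, and the 2 sterol enzymes with the largest changes. The sequences are those of RefSeq on GRCm38.p6, each read along the gene's own strand, and the capitals mark letters that match TCACNCCAC (a sterol regulatory element-like motif), CACGTG (an E-box), CCAAT (the core of an NF-Y site) or GGGCGG (a GC box bound by Sp1), on either strand. The Hmgcs1 sequence is chr13:119690101-119690350 on the plus strand, that of Insig1 is chr5:28071162-28071411 on the plus strand, and that of Insig2, which has 3 listed starts, is chr1:121332590-121332839 on the minus strand, before its outermost start. The windows of the other Insig2 starts are not printed, and both hold a GC box, at bases -6 to -1 and -128 to -123. Which Insig2 start these cells use was not tested, so the printed windows do not set Insig1 against Insig2. The Ebp sequence is chrX:8193513-8193762 on the minus strand and the Cyp51 sequence is chr5:4104698-4104947 on the minus strand.
Hmgcs1: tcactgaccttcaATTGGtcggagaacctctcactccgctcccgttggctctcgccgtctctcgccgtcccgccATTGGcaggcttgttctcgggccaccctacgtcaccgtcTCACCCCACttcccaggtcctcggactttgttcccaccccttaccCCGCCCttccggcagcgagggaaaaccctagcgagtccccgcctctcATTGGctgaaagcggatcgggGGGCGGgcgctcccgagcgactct
Insig1: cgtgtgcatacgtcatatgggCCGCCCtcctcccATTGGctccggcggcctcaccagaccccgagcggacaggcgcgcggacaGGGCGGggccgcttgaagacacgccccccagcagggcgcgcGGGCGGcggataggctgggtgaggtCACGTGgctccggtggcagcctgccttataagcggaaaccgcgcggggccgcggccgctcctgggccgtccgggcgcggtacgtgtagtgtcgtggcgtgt
Insig2: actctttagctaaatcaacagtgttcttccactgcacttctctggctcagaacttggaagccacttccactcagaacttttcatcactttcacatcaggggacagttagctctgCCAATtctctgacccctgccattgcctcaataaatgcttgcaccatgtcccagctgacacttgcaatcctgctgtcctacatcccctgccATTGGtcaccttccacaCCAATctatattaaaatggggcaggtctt
Ebp: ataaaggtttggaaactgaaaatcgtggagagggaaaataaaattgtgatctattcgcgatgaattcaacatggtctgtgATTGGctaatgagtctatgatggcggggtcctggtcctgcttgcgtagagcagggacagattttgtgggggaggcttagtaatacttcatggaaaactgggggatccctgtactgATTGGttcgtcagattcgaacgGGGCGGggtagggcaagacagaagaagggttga
Cyp51: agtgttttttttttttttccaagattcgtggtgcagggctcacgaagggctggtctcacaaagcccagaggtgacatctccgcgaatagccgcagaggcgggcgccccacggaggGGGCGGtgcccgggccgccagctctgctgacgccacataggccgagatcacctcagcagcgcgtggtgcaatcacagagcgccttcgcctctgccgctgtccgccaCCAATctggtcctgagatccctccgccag

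Promoters were matched for 29 of the 36 genes, giving 39 windows of 300 bases that run from 250 before to 50 after a start. The other 7 genes, Fdps, Fdft1, Sqle, Stard4, Scd1, Scd2 and Fads1, had no match and were not searched. The letters CCAAT were found in 25 of the 39 windows (64.1%), against 37.4% of all 32851 promoters of the same length, and GGGCGG in 28 (71.8%) against 35.7%. Among the 18 windows of sterol enzymes, 14 held CCAAT and 15 held GGGCGG. TCACNCCAC was found once, at bases -137 to -129 of Hmgcs1, and 1.24% of all promoters hold it. CACGTG was found in 7 windows of 6 genes (17.9%), among them Insig1 at bases -101 to -96, against 7.15% of all promoters. Of the 7 windows, 2 were of Scap, with the letters at bases 28 to 33 of one start and -40 to -35 of another. Windows of one gene can overlap, so the same letters may be counted again. The 2 Scap windows appear to be such a case. GGGCGG follows CACGTG at the same distance in both, at bases 38 to 43 of the first and -30 to -25 of the second. The motifs do not overlap one another in the printed windows. A match is a description of the letters and not evidence of a bound site. The windows of Insig1, Ebp and Cyp51 hold no TCACNCCAC, which says only that these letters are not in them.

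The first 7 enzymes act between acetyl-CoA and farnesyl diphosphate, the branch point from which sterols, prenyl groups and ubiquinone are made. They are not the whole route, because HMG-CoA reductase, which makes mevalonate, is not among the 36 genes and is not reported here. All 7 lay higher in every AxR library than in any P library, and 6 passed the test. Acat2, the cytosolic thiolase that joins acetyl-CoA units, was at 10.3, 11.6 and 13 CPM in P and 44.5, 32.2 and 22.4 CPM in AxR. It rose by 1.5 ± 0.31 on the log2 scale (SE, edgeR adjusted p = 0.01), with AxR replicate 1 the highest library and AxR replicate 3 the lowest of its line. Of the 50-base words of its transcripts, 39.1% also occur in Acat3, a neighboring copy whose own level was 1.61 CPM in P and 1.54 CPM in AxR.

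Hmgcs1, the HMG-CoA synthase of the cytosol, was at 70.8, 58.4 and 74.8 CPM in P and 140, 113 and 80.3 CPM in AxR. The lines did not overlap, but AxR replicate 3 lay just above the highest P library and the gene did not pass the test at 0.71 ± 0.25 (SE, edgeR adjusted p = 0.0634). Without AxR replicate 3 the difference was 0.90 (edgeR adjusted p = 0.00212), and DESeq2 on all 6 libraries gave 0.69 (adjusted p = 0.00963). Its promoter is the one above that carries the sterol regulatory element-like letters.

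Next among the listed genes are the kinases and the decarboxylase that convert mevalonate to isopentenyl diphosphate. Mvk, mevalonate kinase, was at 7.35, 7.85 and 9.26 CPM in P and 13.5, 12.1 and 12.5 CPM in AxR, a rise of 0.64 ± 0.11 (SE, edgeR adjusted p = 0.000155). Mvd, the decarboxylase that yields isopentenyl diphosphate, was at 4.8, 4.73 and 5.74 CPM in P and 12.6, 12 and 8.02 CPM in AxR, a rise of 1.09 ± 0.17 (SE, edgeR adjusted p = 5.37e-05). Pmvk, the phosphomevalonate kinase between them, rose least of the 6, from 16 ± 1.41 to 22.2 ± 0.37 CPM (SD, n = 3), a log2 fold change of 0.47 that lay 0.15 above the median of the tested genes on its chromosome 3.

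Idi1, the isomerase that interconverts the isoprenoid units, was at 32.8, 27.9 and 40.6 CPM in P and 86.8, 72.3 and 46.8 CPM in AxR. It passed the test at 1.02 ± 0.30 (SE, edgeR adjusted p = 0.0376), but the call was kept in only 6 of 13 alternative analyses and was lost when any one of the P libraries, or AxR replicate 1 or 2, was left out. Fdps, farnesyl diphosphate synthase, was at 45.2, 51.8 and 53.1 CPM in P and 159, 149 and 140 CPM in AxR, a rise of 1.58 ± 0.07 (SE, edgeR adjusted p = 5.71e-11). Within AxR its libraries differed little, unlike those of Acat2, Hmgcs1 and Idi1. Both Idi1 and Fdps share sequence with other genes. Of the 50-base words of Idi1, 17.7% also occur in Gm13502, which rose by 1.10. Of those of Fdps, 23.4% occur in Gm43738, a gene model that overlaps it on the same strand and had no counts, 12.1% in Gm3571, which rose by 1.43, and 5.5% in Gm5873, which rose by 1.63. Opposite-strand genes overlap 18.31% of the exon bases of Fdft1, 13.23% of those of Scap and 12.12% of those of Hmgcs1, and the strand setting of the counting is not given in the sources used here.

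The other 11 enzymes act between farnesyl diphosphate and cholesterol, by way of squalene and lanosterol, and 10 of them rose. Fdft1, squalene synthase and the first enzyme committed to sterols, was at 22.9, 25.2 and 27.7 CPM in P and 73.7, 72.4 and 62 CPM in AxR, a rise of 1.46 ± 0.08 (SE, edgeR adjusted p = 1.49e-09). Sqle, squalene epoxidase and a rate-limiting step of the later pathway, was at 91.1, 97.1 and 92.8 CPM in P and 222, 203 and 184 CPM in AxR. All 3 AxR libraries of Sqle lay well above P, and the rise was 1.11 ± 0.07 (SE, edgeR adjusted p = 1.42e-09). Lss, lanosterol synthase, which closes the sterol rings, was at 28.8, 34.6 and 33.7 CPM in P and 70.4, 63.5 and 63.1 CPM in AxR, a rise of 1.02 ± 0.08 (SE, edgeR adjusted p = 2.06e-08).

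Lanosterol is then stripped of methyl groups, and the enzymes that do this rose to different extents. Cyp51, the lanosterol demethylase, was at 38.2, 41.8 and 48.5 CPM in P and 156, 150 and 121 CPM in AxR, a rise of 1.73 ± 0.11 or 3.32-fold (SE, edgeR adjusted p = 1.31e-06). Msmo1, the methylsterol monooxygenase, was at 114, 124 and 124 CPM in P and 196, 188 and 172 CPM in AxR. Its rise was smaller, at 0.62 ± 0.06 (SE, edgeR adjusted p = 2.68e-07). Nsdhl, a sterol dehydrogenase acting at the same carbon, was at 9.79, 10.9 and 9.52 CPM in P and 28.7, 26 and 20.7 CPM in AxR, a rise of 1.31 ± 0.12 (SE, edgeR adjusted p = 2.31e-07).

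Hsd17b7, the ketosteroid reductase that completes the demethylation, was at 7.72, 7.22 and 8.41 CPM in P and 17, 11.9 and 10.7 CPM in AxR. Its rise of 0.76 ± 0.16 (SE, edgeR adjusted p = 0.00102) was carried most by AxR replicate 1, and it was 0.54 without that library (edgeR adjusted p = 0.00161). Tm7sf2, a sterol reductase, had the lowest level of the 36 genes in P per kilobase of exon (0.346 CPM per kilobase). Its levels per library were 1.64, 1.5 and 1.43 CPM in P and 2.86, 3.06 and 2.5 CPM in AxR. It rose by 0.87 ± 0.21 (SE, edgeR adjusted p = 0.00225), and 9.9% of its 50-base words also occur in the overlapping gene Vps51, which rose by 0.49.

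Ebp, the sterol isomerase that shifts a ring double bond, had the largest change of the sterol enzymes. It was at 4.98, 6.52 and 5.8 CPM in P and 24.2, 20.7 and 21 CPM in AxR, a rise of 1.92 ± 0.11 or 3.8-fold (SE, edgeR adjusted p = 1.41e-09). Sc5d, the desaturase that follows Ebp, was at 60.7, 55.7 and 59.7 CPM in P and 72.5, 67.2 and 57.2 CPM in AxR. The lines overlapped for Sc5d and it did not pass the test at 0.16 ± 0.08 (SE, edgeR adjusted p = 0.0891), although it did without AxR replicate 3, in which it was lowest of the AxR line (0.25, edgeR adjusted p = 0.00245). Dhcr7, the last reductase before cholesterol, was at 33.5, 30.7 and 33.6 CPM in P and 55.4, 57.2 and 48.1 CPM in AxR, a rise of 0.72 ± 0.08 (SE, edgeR adjusted p = 9.45e-07). Changes in neighboring steps thus ranged from 0.16 to 1.92 within 3 successive enzymes.

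Summed over the 18 sterol enzymes, the level was 599, 615 and 658 CPM in the P libraries and 1397, 1275 and 1094 CPM in the AxR libraries, a ratio of means of 2.01. The 7 enzymes up to farnesyl diphosphate had a ratio of 2.12 and the 11 after it a ratio of 1.97. Both segments had a median log2 fold change of 1.02, but per library the median against the P mean was 1.23, 1.10 and 0.59 in AxR for the first 7 and 1.11, 0.96 and 0.96 for the other 11. After subtraction of the chromosome medians the segments stood at 1.25 and 0.99, and the difference between them was not tested. Per kilobase of annotated exon, the most abundant of these 18 transcripts in P were Msmo1 at 19.6, Sqle at 16.9 and Hmgcs1 at 14.8 CPM per kilobase. In AxR they were Sqle at 36.6, Fdps at 35.5 and Cyp51 at 32.2 CPM per kilobase.

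**Figure D2:**
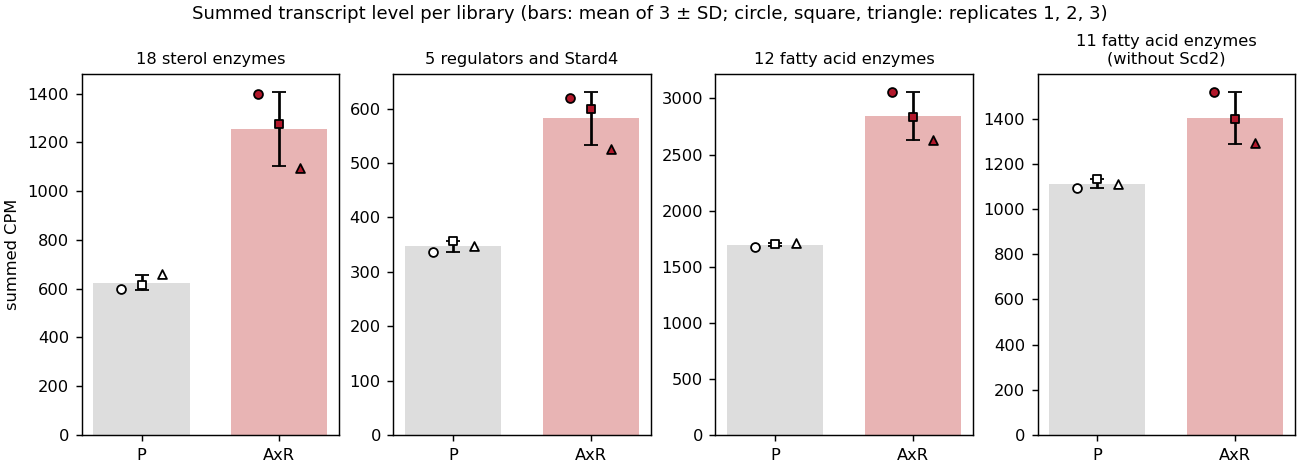
Summed CPM of the genes of each group in each library, with bars for the mean of 3 libraries and error bars for ± SD; axes start at 0 and differ between panels. The sterol enzymes sum to 1094 to 1397 CPM in AxR against 599 to 658 CPM in P, and the fatty acid enzymes without Scd2 to 1290 to 1519 CPM against 1093 to 1133 CPM.

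Among the regulators, Insig1 changed most of all 36 genes. Insig1 (ENSMUSG00000045294.11, chr5:28071363-28078662, plus strand, GRCm38), which retains SCAP in the endoplasmic reticulum and is itself a classical SREBP target, was at 24.4, 24.2 and 32.5 CPM in P and 150, 134 and 95.4 CPM in AxR. It rose by 2.23 ± 0.23 or 4.68-fold (SE, edgeR adjusted p = 0.000789) and ranked 325 among the 13550 genes by log2 fold change. Its paralog Insig2, which shares the function but is not induced through SREBP in most cells, was at 68.3 ± 1.19 CPM in P and 71.6 ± 1.98 CPM in AxR (SD, n = 3). The Insig2 libraries did not overlap, but the difference of 0.07 ± 0.05 did not pass the test (SE, edgeR adjusted p = 0.27). Per kilobase of exon, Insig2 stood at 19.7 CPM in P and 20.6 CPM in AxR and Insig1 at 8.75 and 40.9 CPM, so Insig2 was the more abundant in P and Insig1 in AxR.

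Srebf2, the source of SREBP-2, was at 94.1, 103 and 96.2 CPM in P and 197, 195 and 182 CPM in AxR, a rise of 0.96 ± 0.06 or 1.95-fold (SE, edgeR adjusted p = 1.04e-09). Srebf1, the source of SREBP-1, was at 34.6, 36.3 and 33 CPM in P and 41.1, 43.6 and 41.8 CPM in AxR. The lines did not overlap for Srebf1 either, and it rose by 0.28 ± 0.07 (SE, edgeR adjusted p = 0.00161). The gene-level values do not separate the SREBP-1a and SREBP-1c transcripts, and RNA levels do not report how much of either protein is cleaved. Scap, the escort protein, was the only regulator that was lower, at 89.3 ± 6.36 CPM in P and 80.7 ± 1.14 CPM in AxR (SD, n = 3). Its fall of 0.15 (edgeR adjusted p = 0.0392) did not hold when any library other than P replicate 3 was left out, and it lay 0.08 above the median of the tested genes on chromosome 9.

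Stard4, a soluble carrier that moves cholesterol between membranes and a known SREBP target, was at 27.7, 28.8 and 31.6 CPM in P and 80.1, 75.4 and 54.3 CPM in AxR. It rose by 1.25 ± 0.15 (SE, edgeR adjusted p = 0.000144), with AxR replicate 3 again the lowest of its line. The tested genes of its chromosome 18 had a median of 0.50, and Stard4 lay 0.75 above it.

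The fatty acid enzymes differed in median by step, though their ranges overlapped. The 5 genes that supply precursors and build the chain had a median of 0.19 (-0.52 to 0.55), with 3 higher and 2 lower. The 7 elongases and desaturases had a median of 0.58 (0.03 to 1.43), with 6 higher and none lower. The difference between these groups was not tested. The acetyl-CoA carboxylases Acaca and Acacb, which make malonyl-CoA, were the 2 that fell.

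Acly, the citrate lyase that supplies acetyl-CoA to both routes, was at 199, 197 and 193 CPM in P and 277, 266 and 239 CPM in AxR, a rise of 0.41 ± 0.06 (SE, edgeR adjusted p = 1.27e-05). Me1, the malic enzyme that supplies NADPH, was at 52.9, 45.2 and 53.3 CPM in P and 78.4, 72.5 and 70.0 CPM in AxR, a rise of 0.55 ± 0.07 (SE, edgeR adjusted p = 7.82e-06). Both supply enzymes were higher in every AxR library. Of the 50-base words of Me1, 21.1% also occur in Gm7049, which rose by 0.74.

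Acaca, the cytosolic carboxylase, was at 168, 174 and 172 CPM in P and 152, 134 and 133 CPM in AxR, a fall without overlap (log2 fold change -0.29 ± 0.06, SE, edgeR adjusted p = 0.000354). The processed copy Gm5182, which holds 29.2% of its 50-base words, had the same log2 fold change of -0.29. Acacb, the carboxylase at the mitochondrial surface, was at 7.84, 6.99 and 6.91 CPM in P and 5.59, 4.91 and 4.66 CPM in AxR, a log2 fold change of -0.52 ± 0.13 (SE, edgeR adjusted p = 0.00293). Fasn, the fatty acid synthase, was at 292, 315 and 295 CPM in P and 383, 333 and 311 CPM in AxR. The Fasn libraries overlapped, and the difference of 0.19 ± 0.07 passed the test on all 6 libraries (SE, edgeR adjusted p = 0.026) but not without AxR replicate 1, when it was 0.10 (edgeR adjusted p = 0.115), nor without P replicate 1 or 3. Acaca, Acacb and Fasn were therefore within 1.44-fold of P in AxR.

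The desaturases place double bonds in finished chains, and of these Fads2 and Scd2 had the largest changes among the fatty acid genes. Scd2, a stearoyl-CoA desaturase and the most abundant of the 36 transcripts, was at 585, 571 and 599 CPM in P and 1541, 1437 and 1342 CPM in AxR, a rise of 1.3 ± 0.05 (SE, edgeR adjusted p = 2.99e-11). Scd1, the neighboring desaturase of the same chromosome 19 cluster, was at 77.4, 77.8 and 82 CPM in P and 109, 102 and 85.7 CPM in AxR. Scd1 rose only by 0.32 ± 0.08 (SE, edgeR adjusted p = 0.00194), and its AxR replicate 3 lay close to the P libraries. Scd2 spans chr19:44293674-44306864 on the plus strand and Scd1 chr19:44394455-44407879 on the minus strand of GRCm38. The Scd genes share little exact sequence, with 3.0% of the 50-base words of Scd1 also in Scd2.

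Fads2, the desaturase that starts the synthesis of long polyunsaturated fatty acids, was at 22.3, 26.6 and 22.6 CPM in P and 68.8, 63.3 and 60.8 CPM in AxR. It rose by 1.43 ± 0.08 or 2.69-fold (SE, edgeR adjusted p = 7.44e-10), the largest change of the fatty acid genes. Fads1, its neighbor, which acts later in the same route, was at 68.4, 78.9 and 75.5 CPM in P and 115, 112 and 108 CPM in AxR, a rise of 0.58 ± 0.06 (SE, edgeR adjusted p = 6.45e-07). Fads2 lies at chr19:10062765-10101746 on the minus strand and Fads1 at chr19:10182888-10196877 on the plus strand of GRCm38. Both were higher in each AxR library than in any P library.

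The elongases add carbon units at the endoplasmic reticulum. Elovl6, which lengthens the products of Fasn, was at 87.4, 94.7 and 93 CPM in P and 201, 182 and 155 CPM in AxR, a rise of 0.97 ± 0.08 (SE, edgeR adjusted p = 5.28e-07). It lay 0.65 above the median of the tested genes on chromosome 3. Elovl1, which acts on very long saturated chains, was at 35.2 ± 3.83 CPM in P and 42.3 ± 1.85 CPM in AxR (SD, n = 3) and passed the test at 0.26 (edgeR adjusted p = 0.00905), though not without P replicate 3 (edgeR adjusted p = 0.0604). Elovl5, which lengthens polyunsaturated chains between the steps of Fads2 and Fads1, was at 82.4 ± 4.66 CPM in P and 84.2 ± 5.08 CPM in AxR (SD, n = 3) and did not pass (edgeR adjusted p = 0.674).

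Summed over the 12 fatty acid enzymes, the level was 1678, 1704 and 1710 CPM in P and 3061, 2834 and 2632 CPM in AxR, a ratio of 1.67. Scd2 made up much of this. Without it the sums were 1093 to 1133 CPM in P and 1290 to 1519 CPM in AxR, a ratio of 1.26. Per kilobase of exon, Scd2 stood at 107 CPM in P and 264 CPM in AxR, and the next fatty acid transcript, Acly, at 37.2 and 49.4 CPM.

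**Figure D3:**
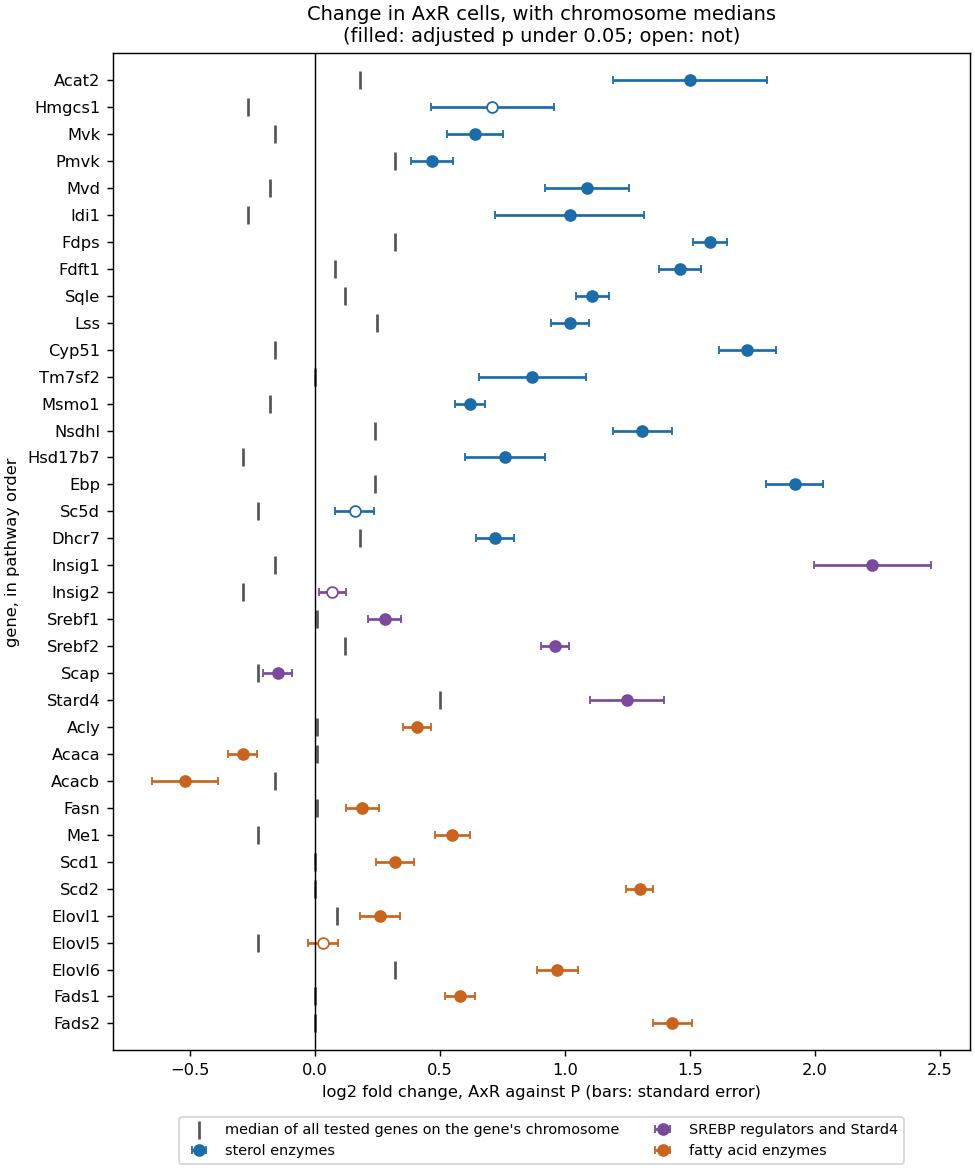
Log2 fold change of AxR against P for the 36 genes in pathway order, with bars for the standard error and gray ticks for the median of all genes tested on the same chromosome. Filled points passed an adjusted p of 0.05; the 18 sterol enzymes, at 0.16 to 1.92, all lie to the right of their chromosome's tick.

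Related genes within the set changed by unequal amounts, and the log2 ratio of a pair within one library does not depend on how that library is scaled. For Insig1 over Insig2 the ratio was -1.46, -1.48 and -1.10 in the P libraries and 1.09, 0.92 and 0.37 in the AxR libraries, negative in every P library and positive in every AxR library. Srebf1 over Srebf2 moved from -1.50 ± 0.05 in P to -2.18 ± 0.07 in AxR (SD, n = 3), toward Srebf2. Scd1 over Scd2 moved from -2.89 ± 0.03 to -3.87 ± 0.09 (SD, n = 3), toward Scd2. Fads1 over Fads2 moved from 1.64 ± 0.09 to 0.79 ± 0.05 and Elovl5 over Elovl6 from -0.16 ± 0.12 to -1.09 ± 0.10 (SD, n = 3). The shift for Acaca over Acacb was the smallest, from 4.57 ± 0.12 to 4.79 ± 0.04 (SD, n = 3). None of the 6 pairs overlapped between the lines, where 68.3% of all single genes tested did not overlap either and the share over other gene pairs was not computed. Each pair gave p = 0.1 in the exact two-sided permutation test, the smallest possible, and 0.1 after Benjamini-Hochberg adjustment over the 6 pairs.

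**Figure D4:**
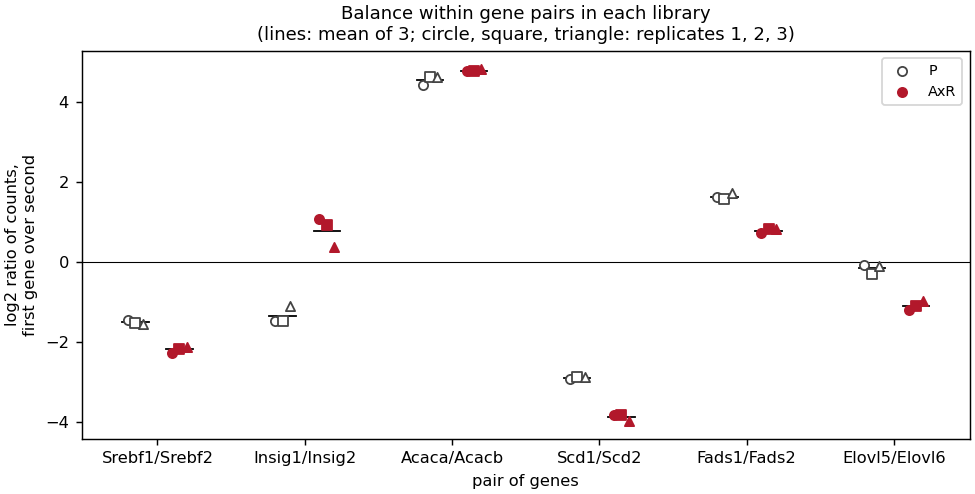
Log2 ratio of the counts of 2 related genes in each library for 6 pairs (open symbols P, filled symbols AxR, shapes for replicates 1, 2 and 3, lines for the mean of 3). Insig1 over Insig2 goes from a mean of -1.35 in P to 0.79 in AxR, and the other pairs shift by -0.98 to 0.23.

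The AxR libraries were not equally high. AxR replicate 1 had the highest level of its line for 30 of the 36 genes, against 34.4% of all genes tested, and AxR replicate 3 the lowest for 31 of 36, against 38.5% of all genes. Over all genes tested, AxR replicates 1 and 3 differed more than any other 2 replicates of a line. Replicate 1 exceeded replicate 3 for 33 of the 36 genes, and for 6930 of the 13550 genes tested. The median log2 ratio was 0.20 for the 36 genes and 0.01 for all genes tested. The gap was widest for Acat2 at 0.98, Idi1 at 0.88, Hmgcs1 at 0.80, Insig1 at 0.65 and Hsd17b7 at 0.65. It was near 0 for Pmvk at 0.04 and Srebf1 at -0.02. Across the 36 genes this gap had a Pearson correlation of 0.42 and a Spearman correlation of 0.44 with the shift of AxR replicate 2 from the P mean, against 0.06 and 0.11 over all genes tested. These are correlations across genes in the same libraries, and genes are not independent replicates.

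Leaving out either end of this range kept the picture for the sterol enzymes. Without AxR replicate 3 all 18 sterol enzymes passed the test and their median was 1.12, and without AxR replicate 1 the count was 15 and the median 0.92. The fatty acid enzymes had medians of 0.44 and 0.33 in the same order. Among the P libraries, replicate 1 was lowest for 19 of the 36 genes, against 35.3% of all genes tested, and replicate 3 highest for 17, against 30.5%.

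**Figure D5:**
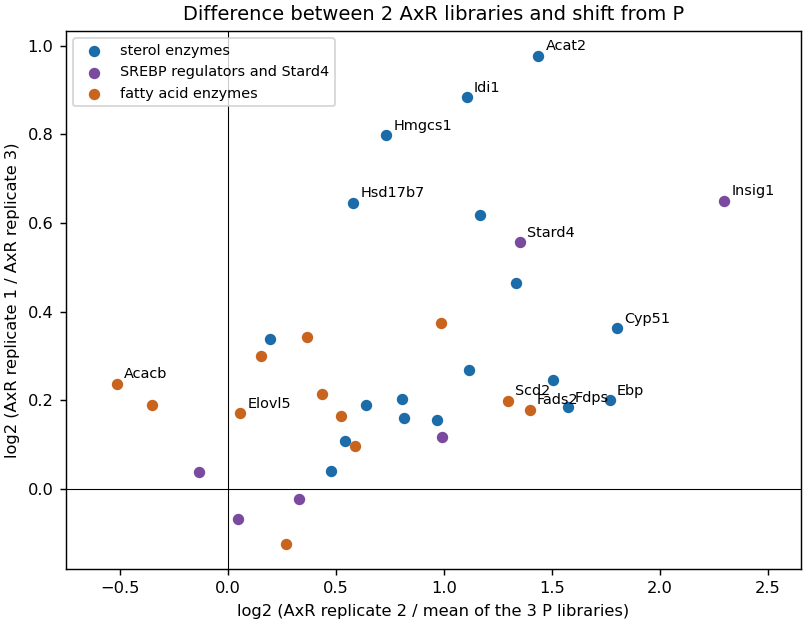
For each of the 36 genes, the log2 ratio of AxR replicate 1 to AxR replicate 3 (vertical) against the log2 ratio of AxR replicate 2 to the mean of the 3 P libraries (horizontal). Of the 36 genes, 33 lie above 0 on the vertical axis, with Acat2 highest at 0.98.

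Genes of chromosomes that were shifted as a whole were read against their chromosome. The medians of the chromosomes that carry these genes ranged from -0.29 on chromosome 1 to 0.50 on chromosome 18. After subtraction of the chromosome's median, all 18 sterol enzymes stayed above 0 with a median of 1.02. The regulators with Stard4 had a median of 0.56 and the fatty acid enzymes one of 0.36. The sign changed for Scap alone. Restricting the sterol enzymes to the 13 with at most 5% of their 50-base words in other genes left 11 higher and none lower with a median of 0.76, and the 10 such fatty acid enzymes kept 8 higher and 1 lower with a median of 0.36.

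Other genes of lipid metabolism went in both directions, at shares near those of all genes tested. Of 58 further genes in 4 lists, 48 could be tested, with a median of 0.04. Of the 48, 17 rose (35.4%, against 32.8% of all genes) and 15 fell (against 30.8% of all genes). The same shares of all genes stand beside each list, and the lists are small. Among 11 tested genes of SREBP processing and sterol sensing, 3 rose (27.3%) and 3 fell. Among 11 of sterol and isoprenoid handling, 3 rose (27.3%) and 5 fell. Among 9 further elongation and desaturation genes, 4 rose (44.4%) and 4 fell. Among 17 of fatty acid supply, activation and glyceride synthesis, 7 rose (41.2%) and 3 fell.

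A few of these changed by at least 1 on the log2 scale. Vldlr, a lipoprotein receptor, was at 22.3, 20.2 and 22.2 CPM in P and 1.65, 2.17 and 1.54 CPM in AxR, a log2 fold change of -3.59 ± 0.13 (SE, edgeR adjusted p = 9.68e-12). Soat2, which esterifies cholesterol for storage or export, was at 16.5, 16.7 and 12.2 CPM in P and 3.3, 3.38 and 4.78 CPM in AxR, a log2 fold change of -1.98 ± 0.16 (SE, edgeR adjusted p = 9.19e-08). Both were lower in every AxR library than in any P library. Acsl6, an acyl-CoA synthetase, fell from 7.17 ± 0.81 to 0.63 ± 0.07 CPM (SD, n = 3), a log2 fold change of -3.49 (edgeR adjusted p = 1.60e-09). Slc27a1, a fatty acid transport protein, rose from 44.4 ± 4.21 to 134 ± 15.2 CPM (SD, n = 3), a log2 fold change of 1.59 (edgeR adjusted p = 1.21e-08). Scd4, a minor member of the Scd cluster, was at 0.404 to 0.912 CPM in P and 1.37 to 2.10 CPM in AxR and rose by 1.23 (edgeR adjusted p = 0.00494).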

How the data were processed

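RNA from 3 P and 3 AxR libraries was made into stranded, polyA-selected libraries and sequenced. The authors deposited one table of estimated counts per Ensembl gene, made with STAR 2.6.0a and RSEM 1.3.1 on GRCm38 after FastQC 0.11.5, per the submitters' processing notes and the labels. Gene symbols, positions and exon lengths came from GENCODE M21. The 36 genes and all other lists were chosen with earlier results of these data known. The estimated counts were rounded, filtered with filterByExpr (13550 genes kept), scaled by upper quartile as in the study's methods, and tested in edgeR 4.0.16 (R 4.3.3) with the quasi-likelihood test and Benjamini-Hochberg adjustment over all genes tested, with line as the only term. Alternatives were TMM, library size only, DESeq2 1.42.0, limma-voom 3.58.1, no filter, at least 10 counts in every library, a replicate block, a log2 threshold of 1, each library left out, and subtraction of chromosome medians. The code was tested on simulated data. Values in every library were given for genes past an adjusted p of 0.05 and a log2 fold change of 0.5 in size, and for Hmgcs1, Sqle, Srebf1, Srebf2, Insig1, Acly, Acaca, Fasn and Scd1; Sc5d was added after its values were seen. Other lipid genes were named past a log2 fold change of 1 in size. The listed number of exon bases is the union over transcripts, so levels per kilobase depend on the annotation. Shared sequence is the share of a gene's 50-base words found in other genes' transcripts. A count of 3 in a library corresponds to 0.171 to 0.196 CPM. Same-numbered P and AxR libraries deviated from their line means with correlations of -0.0213, -0.0061 and -0.0217. These values show no shared deviation, but the labels do not say whether same-numbered libraries were handled together. Replicates differed by more than sampling noise (chi-square per degree of freedom 4.99 to 19.2, the highest for AxR replicates 1 and 3) and were all counted.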

Additional observations from a re-analysis of the deposited data

How the results depend on the processing

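The group medians kept their direction and the counts moved by at most 1 gene under TMM, library size only, limma-voom, DESeq2 and both filters, with sterol medians of 1.00 to 1.02, and leaving out one library gave 15 to 18 sterol enzymes higher (medians 0.92 to 1.12), 7 to 9 fatty acid enzymes higher (0.33 to 0.44) and 0 to 1 regulators lower. The median over all genes stayed between -0.0153 and 0.0194. With a log2 threshold of 1, 1083 genes were higher and 640 lower in all, with 10 sterol enzymes higher. Of the regulators and Stard4, 2 were higher (Insig1 and Stard4) and 0 lower, and 2 fatty acid enzymes were higher and 0 lower. With the replicate block 0 regulators were lower, since Scap lost its call (edgeR adjusted p = 0.0565). In the same fit 15 of 18 sterol enzymes were higher, as Idi1 lost its call (edgeR adjusted p = 0.137). The labels do not say whether P and AxR libraries of the same number were handled together. Scap was 0.08 after its chromosome's median was subtracted, and Elovl5 was -0.011 without P replicate 2 and -0.0015 without AxR replicate 1, up to 0.082 without AxR replicate 3, none past the test. Idi1, Scap, Fasn and Elovl1 lost their calls under some settings, and Hmgcs1 and Sc5d gained one. The cause was not tested. Idi1 was also lost with no low-count filter, where 24736 genes were tested (adjusted p = 0.0813).

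With 3 libraries a line, the interval around a small change is wide, and a gene that missed the threshold, such as Insig2, Elovl5 or Sc5d, is not shown to be equal in the lines. The values are RNA levels in 1 resistant variant, and neither protein, lipid content nor SREBP cleavage was measured. Genes with sequence copies carry the uncertainty of how RSEM divided shared reads. Tm7sf2 rests on few counts.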
